A study of Mus musculus with 4 samples.

Results

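The cytoplasmic ribosomal protein genes of mouse colon were described on 4 single-color (Cy3) arrays. The genes were chosen by name alone, as array symbols of the Rpl, Rps, Rplp and Rpsa series without the Rps6k kinases, and each was represented by its brightest probe. This gave 76 genes, 45 of the large (60S) and 31 of the small (40S) subunit, of 22370 genes named on the array and of 17861 genes with a signal well above background on at least 1 array. All 76 were well above background on all 4 arrays.

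The arrays held colon RNA of male mice, 42 weeks old, of the B6.129 (n3) background. They compared Pla2g3+/+ mice with Pla2g3-/- mice, which lack the gene of a secreted phospholipase A2, after saline as vehicle and after azoxymethane (AOM), a procarcinogen that gives colon tumors. AOM was injected intraperitoneally at 10 mg/kg in each of 6 weekly doses, and the colon was taken 28 weeks after the last dose. Each array was 1 pool of 3 to 5 mice, so the spread between mice is unknown, and no comparison of a pair of arrays has a replicate check or a p-value. The authors describe the tissue as whole descending colon. In whole tissue, fewer cells of a type and less RNA per cell cannot be told apart. The targeted gene went against the genotype labels, since the Pla2g3 signal was 343 and 426 on the arrays labelled Pla2g3+/+ and Pla2g3-/- with vehicle, and 304 and 1632 on those labelled Pla2g3+/+ and Pla2g3-/- after AOM. Every direction between genotypes below is therefore one between arrays so labelled.

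Ribosomal proteins coat the ribosomal RNA, the small subunit reading the message and the large subunit joining amino acids, and a cell makes them in near equal numbers. Their mRNAs are among the most abundant of any cell, and most carry a pyrimidine tract at the very start, the 5′ TOP motif, through which mTOR signaling sets how much of the message is translated. Transcription of ribosome genes is a known target of MYC, and growth of the intestinal crypt depends on it.

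The start of the mRNA is shown for 8 of these genes to show windows with and without a pyrimidine tract, the first 5 with one and the last 3 without. Each line runs from 40 bases before to 20 bases after the annotated start, from RefSeq on GRCm38.p6, and capitals mark an unbroken run of at least 8 C or T that reaches into the 5 bases on either side of the start, though it need not cover the start itself.
Rpl4, chr9:64173347-64173406, plus strand: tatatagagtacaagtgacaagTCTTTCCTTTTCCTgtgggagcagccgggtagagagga
Rpl13a, chr7:45128726-45128785, minus strand: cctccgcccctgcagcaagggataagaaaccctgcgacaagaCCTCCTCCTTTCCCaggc
Rplp2, chr7:141447611-141447670, plus strand: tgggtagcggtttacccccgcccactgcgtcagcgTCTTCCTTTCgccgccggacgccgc
Rps6, chr4:86857348-86857407, minus strand: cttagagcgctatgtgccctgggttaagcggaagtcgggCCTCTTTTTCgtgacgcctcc
Rps27, chr3:90213629-90213688, minus strand: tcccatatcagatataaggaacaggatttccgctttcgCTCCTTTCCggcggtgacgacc
Rpl9, chr5:65391412-65391471, minus strand: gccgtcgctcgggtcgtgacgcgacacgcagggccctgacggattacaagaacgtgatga
Rpl41, chr10:128549149-128549208, minus strand: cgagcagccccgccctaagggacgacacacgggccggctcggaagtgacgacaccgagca
Rps2, chr17:24720023-24720082, plus strand: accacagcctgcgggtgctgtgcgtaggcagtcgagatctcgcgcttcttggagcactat

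A promoter entry was found for 56 of the 76 genes. Such a pyrimidine run was found in 23 of these 56 (41.1%), against 10.96% of 27025 genes and 10.1% of 69 genes of mitochondrial ribosomal proteins. A run that held the first transcribed base was found in 17 of the 56 (30.4%), in 4.59% of all genes and in 1.45% of the mitochondrial set. The letters CCGGAAG, on either strand of the whole window of 300 bases from 250 before to 50 after the start, were found in 23 of the 56, in 9.93% of all genes and in 37.7% of the mitochondrial set. The letters GGGCGG, on either strand of it, were in 60.7% against 38.2% of all genes, and TATAA, read on the gene's strand from 40 to 20 bases before the start, was in 7.14% against 4.22%. The pyrimidine run was thus more common in the cytoplasmic than in the mitochondrial set, while CCGGAAG was about as common in both. The annotated start may differ from the one used in colon, and a match of letters describes the window only.

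The genes gave some of the brightest signals on every array, between 26416 and 311115, with no saturated spot. Their median signal was 104426 for Pla2g3+/+ and 103009 for Pla2g3-/- mice with vehicle, and 121468 and 109035 after AOM. They made up 13.3% and 13.0% of the summed signal of all genes on the vehicle arrays, and 11.1% and 10.0% on the AOM arrays. The median signal was thus a little higher after AOM while the share was lower. Comparison between arrays was made on log2 signals after subtraction of the 75th percentile of each array, and that percentile was 647 and 652 with vehicle but 1312 and 1171 after AOM. On this scale the median of the 76 genes was 7.33 and 7.30 with vehicle and 6.53 and 6.54 after AOM.

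**Figure D1:**
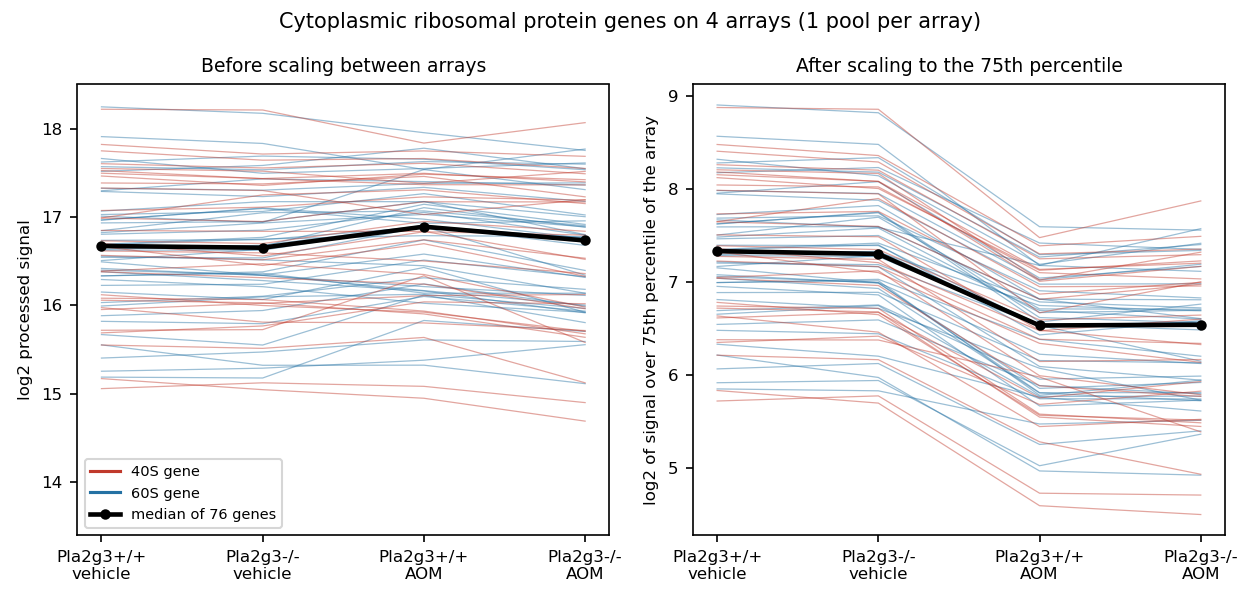
Each line is 1 of the 76 genes over the 4 arrays, on the log2 signal (left) and on the log2 signal over the 75th percentile of the array (right), with 40S genes in red, 60S genes in blue and the median in black. The lines stay nearly parallel, and the scaled median goes from 7.33 and 7.30 with vehicle to 6.53 and 6.54 after AOM, whereas the median signal before scaling is somewhat higher after AOM.

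In vehicle-treated colon, no ribosomal protein gene differed by more than 2-fold between Pla2g3-/- and Pla2g3+/+ mice. Among 16377 genes compared, 1.9% passed 2-fold upward and 1.32% downward in Pla2g3-/- mice. None of the 76 passed 1.5-fold, where 3.99% of all genes were higher and 3.5% lower. Their median log2 ratio was -0.02, the same as that of all genes, and the values ran from -0.24 to 0.25. The scanner software gives the same error of 0.20 for the log2 ratio of each of these genes, whereas replicate spots gave a smaller one of 0.093. Of the 76 genes, 73 lay within the scanner error. Only Rpsa, the laminin-binding protein of the 40S subunit, was above that error, and Rpl5 and Rps13 were below it. The Rpsa signal was 130128 for Pla2g3+/+ and 155888 for Pla2g3-/- mice, a log2 ratio of 0.25, but its 3 other probes gave between -0.13 and 0.08. Rpl5, which carries 5S ribosomal RNA into the large subunit with Rpl11 and holds Mdm2 in check, had signals of 48064 and 40949.5, a log2 ratio of -0.24 from its single probe, and Rpl11 a ratio of 0.02. The next in order, Rpl38 (0.19) at the top and Rplp0 (-0.18) and Rps7 (-0.17) at the bottom, did not differ from their neighbors beyond the scanner error.

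After AOM the genotypes differed widely elsewhere, and in these genes by less than 2-fold. Among 17177 genes compared, 15.1% passed 2-fold upward and 12.9% downward in Pla2g3-/- against Pla2g3+/+ mice, and none of the 76 ribosomal protein genes was in either class. At 1.5-fold 1 of the 76 was lower, where 21.5% of all genes were, and none was higher, where 24.6% were. On these scaled values 63 of the 76 lay within the scanner error of 0.20, with 6 above it and 7 below. The median log2 ratio of the 76 was 0.00, with 38 genes above 0 and 38 below, against 0.03 for all genes. Without scaling the median was -0.16 with 67 of 76 below 0, and that of all genes was -0.13. Under quantile normalization, which gives all arrays the same distribution, it was also -0.16 while that of all genes was 0.00. The even split between higher and lower genes therefore held on the scaled values only, whereas no gene passed 2-fold under any of the 5 scalings.

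**Figure D2:**
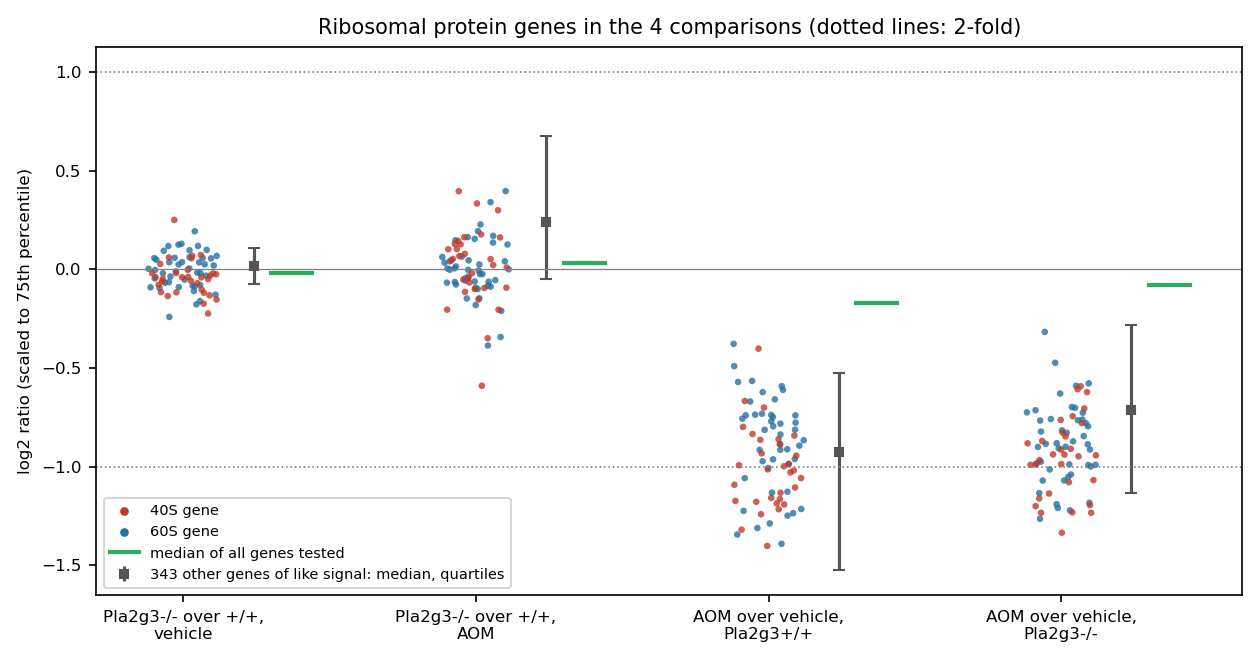
Log2 ratios of the 76 genes (red, 40S; blue, 60S) in the 4 comparisons on values scaled to the 75th percentile, with the median and quartiles of 343 other genes of like signal (grey squares) and the median of all genes tested (green bars); dotted lines mark 2-fold. The genes lie within -0.24 to 0.25 and -0.59 to 0.40 in the comparisons of genotype, and below 0 in both comparisons of AOM with vehicle; without scaling and under quantile normalization the median turned to 0.09 and 0.02 in Pla2g3+/+ mice and was -0.06 and -0.16 in Pla2g3-/- mice.

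The narrow range was seen against genes of the same brightness. The 343 other genes whose mean signal lay within the range of the 76 had an SD of 0.996 in the log2 ratio of Pla2g3-/- over Pla2g3+/+ mice after AOM, against 0.17 for the ribosomal protein genes, and 56 of the 343 passed 2-fold. In that comparison the median of the 343 was 0.24, and the median of the ribosomal protein genes minus it was -0.24. With vehicle the SDs were 0.15 and 0.09. For AOM over vehicle they were 1.13 against 0.24 in Pla2g3+/+ mice and 0.57 against 0.20 in Pla2g3-/- mice. The ribosomal protein genes thus varied less among themselves than other bright genes in each comparison, and this was not tested, since the genes of 1 array are not replicates.

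A few members stood apart after AOM. Rps2, a 40S protein near the entry of the mRNA channel, was the lowest, with signals of 53889 and 54164 for Pla2g3+/+ and Pla2g3-/- mice with vehicle and of 82629.8 and 48978 after AOM. It was high on the Pla2g3+/+ AOM array and alike on the other 3 before scaling, and its log2 ratio after AOM was -0.59. Rpl27 of the large subunit had signals of 121616 in Pla2g3+/+ and 83033 in Pla2g3-/- mice after AOM, with a log2 ratio of -0.39, and its second probe gave -0.49. Rps27l, a close copy of Rps27 and a known p53 target, had 50946 and 35687, a ratio of -0.35. Rpl15 gave -0.34, but its far dimmer second probe gave 0.25. Rpl12, of the stalk base, gave -0.21, and -0.29 with its second probe. These 5 were lower in Pla2g3-/- mice under each of the 5 scalings.

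At the other end, Rpl9 and Rps14 were each 0.40 higher in Pla2g3-/- mice after AOM on the log2 scale. The Rpl9 signal was 246305 and 233457 with vehicle and 190245 and 223453 after AOM, for Pla2g3+/+ and Pla2g3-/- mice in turn, so that the Pla2g3+/+ AOM array was the lowest of the 4. The same order was seen for Rps14, a core protein of the 40S platform, with 305318, 303491, 234117 and 274848. Rpl21 (0.34), Rps27 (0.33) and Rps12 (0.30) followed. The 2 other probes of Rpl21, both far dimmer, gave -0.03 and 0.42, and the second probe of Rps12 gave 0.09. The second probe of Rpl9 gave 0.30, and the 3 other probes of Rps27 between 0.22 and 0.39. The brightest probe of Rps27 is placed on another chromosome than the gene, as is that of Rps29, so a copy of the gene may share the signal. All 5 were higher under each of the 5 scalings.

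The ratios of the 76 genes with vehicle did not go with those after AOM. Across the genes Pearson's r between the log2 ratios of Pla2g3-/- over Pla2g3+/+ mice with vehicle and after AOM was 0.03 and Spearman's rho 0.02. For Rpsa the ratio went from 0.25 with vehicle to 0.01 after AOM, and for Rplp0 from -0.18 to 0.23. The same probes and the same slide underlie both values of a gene, and genes are not independent replicates.

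In the comparison of AOM with vehicle the ribosomal protein genes moved as a block, and its direction depended on how the arrays were scaled. After scaling to the 75th percentile, all 76 were lower in both genotypes, with medians of -0.92 in Pla2g3+/+ and -0.91 in Pla2g3-/- mice, whereas without scaling 49 of 76 were higher in Pla2g3+/+ (median 0.09) and 27 of 76 in Pla2g3-/- mice (median -0.06). Quantile normalization gave medians of 0.02 and -0.16. On the scaled values 29 of 76 genes were over 2-fold lower in Pla2g3+/+ mice, where 22.4% of 17250 genes were, and 21 of 76 in Pla2g3-/- mice, where 15.1% of 16495 genes were. No member was over 2-fold higher, where 15.1% and 9.71% of all genes were. Of the members over 2-fold lower, 17 were so in both genotypes, 12 in Pla2g3+/+ mice only and 4 in Pla2g3-/- mice only. The same overlap over all genes is not given, so these counts describe the 76 genes only. Many values lay close to the threshold in Pla2g3+/+ mice, with Rps20 at -0.998 and Rps21 at -0.993 just outside and Rpl34 at -1.01 just inside it. At 1.5-fold 71 and 73 of 76 were lower, against 35.4% and 28.4% of all genes, and none was higher, against 24.4% and 20.7%.

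Without scaling the median of all genes was 0.87 and 0.76 higher after AOM, and the median of the ribosomal protein genes minus that of all genes was -0.77 and -0.82. After scaling to the 75th percentile this difference was -0.75 and -0.83, but under quantile normalization it was 0.03 in Pla2g3+/+ mice and -0.20 in Pla2g3-/- mice. The 343 other genes of like signal had scaled medians of -0.92 and -0.71 for AOM over vehicle, and 153 and 109 of them were over 2-fold lower. The median of the ribosomal protein genes minus that of other bright genes was thus 0.00 in Pla2g3+/+ mice and -0.19 in Pla2g3-/- mice. The part of signal brightness in the block's direction was not tested further.

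**Figure D3:**
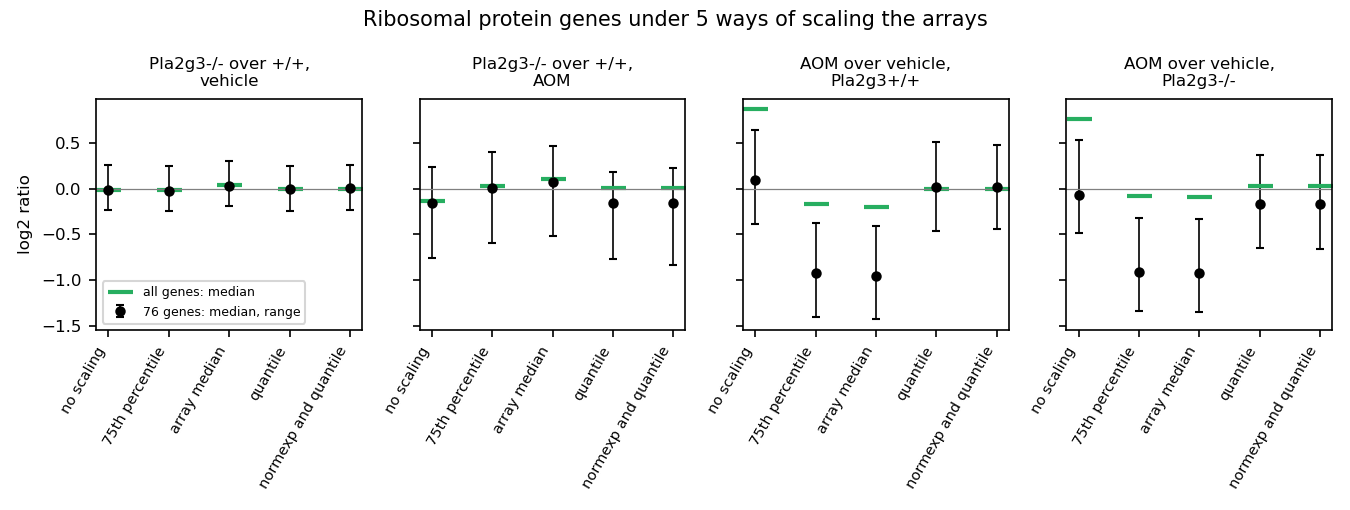
Median and full range of the log2 ratios of the 76 genes (black) and median of all genes (green) under 5 ways of scaling the arrays, for the 4 comparisons. With vehicle the medians stay between -0.02 and 0.03; for AOM over vehicle they lie at -0.92 and -0.91 after scaling to the 75th percentile and between -0.16 and 0.09 without scaling or with quantile normalization.

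Within the block the order of the genes was less open to scaling, since a single factor per array moves all genes alike. Rpl4, which lines the peptide exit tunnel, lay at the top in both genotypes, its signals being 37316 and 37059 with vehicle but 58197 and 53403 after AOM. Rpl4 was 0.55 above the median of the ribosomal protein genes in Pla2g3+/+ mice and 0.59 above it in Pla2g3-/- mice, and 0.48 and 0.53 above it under quantile normalization. Rpl23 was 0.43 and 0.44 above the median, from log2 ratios of -0.49 and -0.47. Its 2 dimmer probes gave -0.63 and 0.22 in Pla2g3+/+ mice and -0.52 and -0.28 in Pla2g3-/- mice. Rps2 stood at 0.52 relative to the median in Pla2g3+/+ mice but at -0.08 in Pla2g3-/- mice. Its second bright probe had the opposite order, with log2 ratios of AOM over vehicle of -0.93 and -0.56 in Pla2g3+/+ and Pla2g3-/- mice against -0.40 and -0.99 for the brightest probe, so the contrast rests on the choice of probe. Rpl41, the smallest ribosomal protein, stood at -0.39 and -0.36 relative to the median, with signals of 311115 and 295724 with vehicle and 253995 and 220979 after AOM. Rps14, Rpl9 and Rps27 stood at -0.48, -0.47 and -0.40 relative to the median in Pla2g3+/+ mice and at -0.08, 0.00 and -0.04 in Pla2g3-/- mice. Other low genes stayed low in both genotypes, with Rpl17 at -0.42 and -0.27 and Rpl35a at -0.36 and -0.23 in turn. In Pla2g3-/- mice the lowest was Rps25, a 40S protein used in translation from internal entry sites, at -0.43 relative to the median, with Rps15, Rps27l and Rps3 between -0.33 and -0.32. The log2 ratio of Rps25 there was -1.34, and its dimmer second probe gave -2.27.

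The order in one genotype resembled that in the other. Across the 76 genes the log2 ratios of AOM over vehicle in Pla2g3+/+ and in Pla2g3-/- mice, which share no array, had a Pearson's r of 0.64 and a Spearman's rho of 0.63. As probes and slide are shared, this is a description without a test.

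By subunit, the 31 genes of the 40S had a scaled median of -1.02 for AOM over vehicle in Pla2g3+/+ mice, with 17 over 2-fold lower, and the 45 genes of the 60S one of -0.84, with 12 over 2-fold lower, where 22.4% of all genes were. In Pla2g3-/- mice the medians were -0.94 and -0.88, with 10 and 11 over 2-fold lower, where 15.1% of all genes were. The median of the 40S minus that of the 60S was thus -0.18 in Pla2g3+/+ mice and -0.06 in Pla2g3-/- mice, a description without a test. For Pla2g3-/- over Pla2g3+/+ mice the subunits were 0.04 and 0.05 apart with vehicle and after AOM.

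The acidic proteins of the stalk, which recruits the elongation factors, were each somewhat higher in Pla2g3-/- mice after AOM, with log2 ratios of 0.23 for Rplp0, 0.17 for Rplp1 and 0.13 for Rplp2, all but Rplp0 within the scanner error, but under quantile normalization they were 0.00, -0.06 and -0.11. The Rplp0 signal was 207439 and 184719 with vehicle and 191794 and 200349 after AOM. Rplp0 often serves as a reference gene, and before scaling it was highest on the Pla2g3+/+ vehicle array and lowest on the Pla2g3-/- vehicle array, whereas after scaling both AOM arrays were below both vehicle arrays. Rps6, the target of the S6 kinases, had signals of 106567, 96515, 116758 and 113741 in the order just given. It was 0.04 above the median of the block for AOM over vehicle in Pla2g3+/+ mice and 0.30 above it in Pla2g3-/- mice. Rps19, the gene most often mutated in Diamond-Blackfan anemia, had 36884, 33816, 31613 and 26416, the lowest signal being that of Pla2g3-/- mice after AOM. Rps3, which has a further role in DNA repair, had 69306, 68578, 62649.7 and 52415. For Rps19 and Rps3 the AOM arrays lay below the vehicle arrays even before scaling.

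Rpl13a, which leaves the ribosome to silence inflammatory messages after interferon, had 87554 and 82837 with vehicle and 75928 and 70841.5 after AOM, lower on the AOM arrays with and without scaling. Rpl22, with a role in T cell development, had 66970 and 70402 with vehicle and 81352 and 74298.5 after AOM. Rpl38, which favors translation of Hox messages, had 117742, 135522, 137453 and 122422 and a ratio of 0.00 between genotypes after AOM. Rpl10 and Rpl39, both X-linked, had ratios of -0.07 and 0.16 between genotypes after AOM. Rps27a, made as a fusion with ubiquitin, had 171194 and 169948 with vehicle and 180224 and 153524 after AOM, a log2 ratio between genotypes of -0.07. On scaled values of the brightest probe none of these genes differed between genotypes beyond the scanner error. Under quantile normalization Rpl10 (-0.27) and Rps27a (-0.30) after AOM and Rpl38 (0.22) with vehicle did.

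Where a gene had several probes they mostly gave like ratios. Of 181 probes, 178 were well above background on all arrays, and 60 of the 76 genes had at least 2. The median range within a gene was 0.10 for the genotypes with vehicle, 0.16 after AOM, and 0.12 and 0.14 for AOM over vehicle. The 2 probes of Rps2 are printed because they disagreed most among bright probes; both lie on chromosome 17 and are given as the array file lists them, in lower case throughout.
Rps2, brightest probe: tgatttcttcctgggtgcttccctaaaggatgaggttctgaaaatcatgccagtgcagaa
Rps2, second probe: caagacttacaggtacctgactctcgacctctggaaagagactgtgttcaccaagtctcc

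The second Rps2 probe had signals of 46926 for Pla2g3+/+ and 21764 for Pla2g3-/- mice with vehicle and of 49989.5 and 26586 after AOM. Both Pla2g3-/- arrays were thus low on it, with log2 ratios of -1.12 and -0.75, whereas the brightest probe gave 0.00 and -0.59. It was the only one of 178 probes over 2-fold apart between genotypes with vehicle. After AOM the 4 probes over 2-fold lower in Pla2g3-/- mice were all dim. A pair of Rpl13a probes had signals of 10515 and 11448 in Pla2g3+/+ and 2829 and 3171 in Pla2g3-/- mice, with ratios of -1.73 and -1.69, where the brightest probe gave 0.06. A probe of Rpsa had 218 and 87.6, a ratio of -1.15 against 0.01. In Rps24, whose last exons are spliced in several ways, the probe for 1 transcript gave 0.72 and the others between 0.05 and 0.25. Of the 178 probes, 19 stayed under a signal of 15000 on every array. Their median ratio between genotypes after AOM was -0.44, against -0.01 for the 159 brighter ones.

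**Figure D4:**
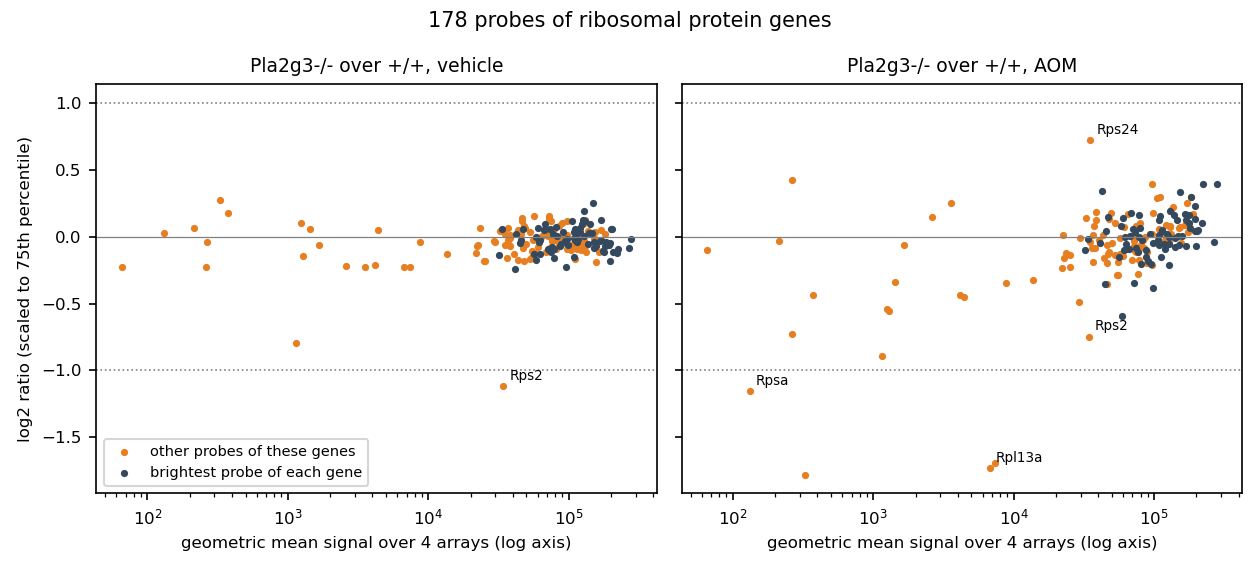
Log2 ratio of Pla2g3-/- over Pla2g3+/+ mice, with vehicle (left) and after AOM (right), against the mean signal for 178 probes, the brightest of each gene in dark blue and others in orange; names mark probes described in the text. Most bright probes lie close to 0. The second Rps2 probe lies at -1.12 and -0.75, and a bright probe of Rps24 at 0.72 after AOM. The Rpl13a probes at -1.73 and -1.69 are dim.

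Of 11 further genes of ribosomal proteins or their copies on the array, whose symbols fall outside the name rule, none of the 10 compared passed 2-fold between genotypes after AOM. For AOM over vehicle 4 of 11 were over 2-fold lower in Pla2g3+/+ and 4 of 8 in Pla2g3-/- mice, where 22.4% and 15.1% of all genes were. Fau (eS30) and Gnb2l1, the Rack1 scaffold, had log2 ratios of 0.19 and 0.06 between genotypes after AOM, and scaled ratios of -1.43 and -0.95 for AOM over vehicle in Pla2g3+/+ and -1.20 and -0.91 in Pla2g3-/- mice. Without scaling Fau stayed lower, at -0.41 and -0.35, while Gnb2l1 had 0.06 and -0.07, and the median of the listed genes was 0.08 and -0.07. The copies Rpl22l1 and Rpl36al had scaled ratios of -1.42 and -1.38 for AOM over vehicle in Pla2g3-/- mice, below the lowest of the 76 genes, Rps25 at -1.34.

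Paralogs, which were named after their values had been seen, differed from their partners after AOM. In 4 of 5 pairs the copy had a clearly lower log2 ratio of Pla2g3-/- over Pla2g3+/+ mice after AOM than its partner. The difference of copy minus partner was -0.68 for Rps27l and Rps27, -0.44 for Rpl22l1 and Rpl22, -0.46 for Rpl36al and Rpl36a and -0.47 for Rpl7l1 and Rpl7, and all 4 kept this sign under quantile normalization, from -0.80 to -0.32. With vehicle the same differences were -0.01, 0.19, 0.07 and 0.15. Near-identical copies can share signal on an array, so each value may hold some signal of its partner. For the fifth pair, Rps4y2 and Rps4x, the difference between genotypes after AOM was -0.01, and 0.15 under quantile normalization, and the pair differed in AOM over vehicle. Rps4y2, which RefSeq now lists as the transcribed pseudogene Rps4l, had signals of 1540.0 and 2351 with vehicle and 235 and 230 after AOM for Pla2g3+/+ and Pla2g3-/- mice. Both AOM arrays were far below both vehicle arrays, with scaled log2 ratios of -3.73 and -4.20 and ratios of -2.71 and -3.35 without scaling, whereas Rps4x had -0.67 and -0.59 scaled and was higher after AOM without scaling. It has 1 probe on the array.

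Genes that build ribosomes did not follow the ribosomal proteins. Of 46 ribosome biogenesis factors, 16 were over 2-fold higher and none lower after AOM in Pla2g3+/+ mice (scaled median 0.73), where 15.1% of all genes were higher. In Pla2g3-/- against Pla2g3+/+ mice after AOM 12 were over 2-fold lower and none higher (median -0.84), where 12.9% of all genes were lower. In Pla2g3-/- mice 1 was higher and 5 lower after AOM (median -0.02), where 9.71% and 15.1% of all genes were, and with vehicle the genotypes had a median of 0.06 with 1 gene lower. The medians in Pla2g3+/+ mice after AOM and between genotypes after AOM kept their sign under all 5 scalings, from 0.70 to 1.75 and from -1.01 to -0.77. Nhp2, a protein of the H/ACA snoRNPs, had signals of 12820 and 15832 with vehicle and 37401 and 10763 after AOM, so that the Pla2g3+/+ AOM array was highest. Myc itself had 197 and 185 with vehicle and 2173 and 607 after AOM, high on both AOM arrays and highest in Pla2g3+/+ mice, with log2 ratios of 2.44 and 0.87 for AOM over vehicle and -1.68 between genotypes. The ribosomal protein genes thus had a scaled median near 0 between genotypes after AOM on arrays where the biogenesis factors and Myc did not. Under quantile normalization the median of the ribosomal protein genes was -0.16.

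Of 19 subunits and factors of RNA polymerase I, which transcribes the large ribosomal RNA, 4 were over 2-fold higher after AOM in Pla2g3+/+ mice and 4 over 2-fold lower in Pla2g3-/- mice. For these and the next lists, 15.1% of all genes were higher and 22.4% lower in Pla2g3+/+ mice, 9.71% and 15.1% in Pla2g3-/- mice, and 15.1% and 12.9% between genotypes after AOM, and many of the counts lie near these shares. Of 13 regulators such as Myc, Mtor and Larp1, 5 were higher and 2 lower in Pla2g3+/+ and 2 higher in Pla2g3-/- mice after AOM, and between genotypes after AOM 1 was higher and 4 lower. Among 13 elongation and TOP-type factors 1 was higher and 2 lower in Pla2g3+/+ and 2 lower in Pla2g3-/- mice, and of 29 initiation factors 2 were higher and 3 lower, and 2 lower. The 76 mitochondrial ribosomal protein genes, which serve a separate ribosome, had scaled medians of -0.78 and -0.98 for AOM over vehicle, with 20 and 34 over 2-fold lower and none higher. They lay at -0.45 and -0.73 under quantile normalization and at 0.23 and -0.14 without scaling, so their direction in Pla2g3+/+ mice turned without scaling too. Between genotypes none of them passed 2-fold, and their medians were 0.06 with vehicle and -0.18 after AOM.

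**Figure D5:**
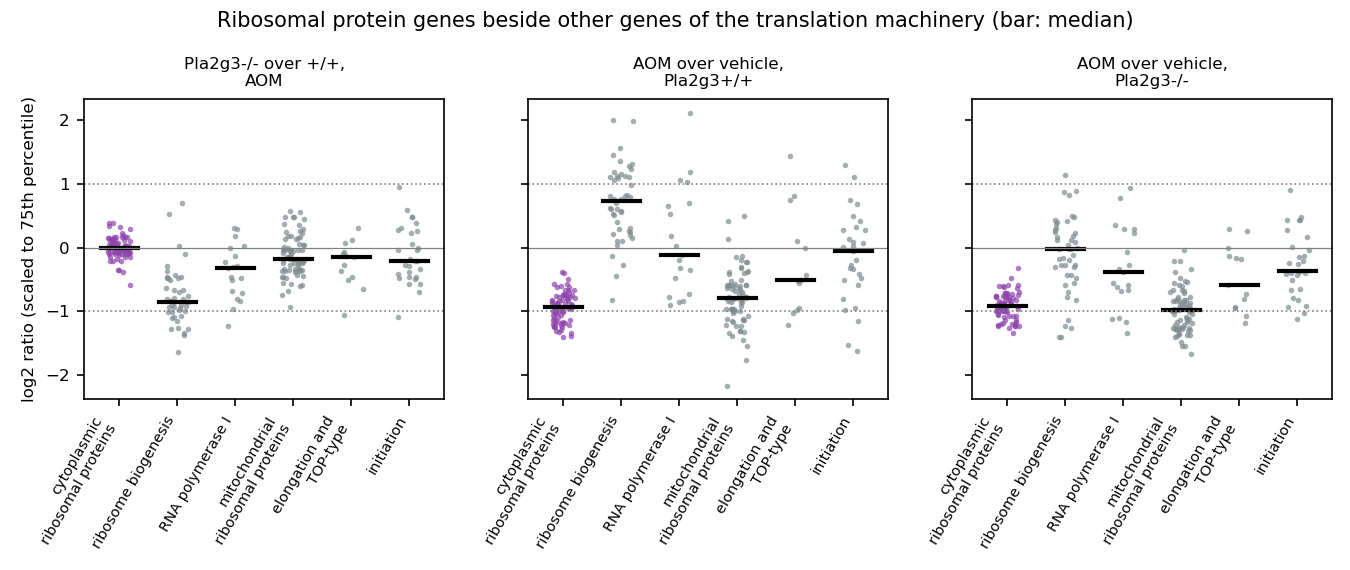
Log2 ratios, scaled to the 75th percentile, of the ribosomal protein genes (purple) and of 5 related lists (grey), each point a gene and each bar the median, for Pla2g3-/- over Pla2g3+/+ mice after AOM and for AOM over vehicle in each genotype. The ribosome biogenesis factors lie at medians of -0.84, 0.73 and -0.02 and the ribosomal protein genes at 0.00, -0.92 and -0.91; for AOM over vehicle the position against 0 of the latter depends on the scaling.

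Other cell types moved between the same arrays. Summed signals here are before scaling, whereas counts past 2-fold are on scaled values. Over 12 smooth muscle markers the summed signal was 439575 and 467374 for Pla2g3+/+ and Pla2g3-/- mice with vehicle and 56407 and 776457 after AOM, and all 12 were over 2-fold higher in Pla2g3-/- mice after AOM. Over 9 goblet cell markers it was 1174240 and 1164500 with vehicle and 280252 and 857487 after AOM, over 13 markers of colonic epithelium 554761, 599521, 501808 and 860518, and over 14 Wnt targets 5894, 5760, 106029 and 11734. Scaled medians of AOM over vehicle in Pla2g3+/+ and Pla2g3-/- mice were -4.34 and -0.09 for smooth muscle and -2.05 and -0.11 for epithelium. For goblet cells they were -3.37 and -1.26, and for Wnt targets 3.06 and -0.02. Between genotypes after AOM 8 goblet and 7 epithelial markers were over 2-fold higher, and 13 Wnt targets, 7 of 16 proliferation genes, 4 of 8 fibroblast, 10 of 13 leukocyte and 5 of 9 neutrophil markers were over 2-fold lower, with 1 marker over 2-fold higher in each of the last 3 lists. All 12 pancreatic acinar markers were over 2-fold higher in Pla2g3-/- mice with vehicle, at a summed signal of 38990.3 against 369. No member of the ribosomal protein set passed 2-fold between the genotypes on the same pairs of arrays. The part of these markers in the AOM over vehicle values was not tested.

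The only test that the design allows fitted treatment and genotype to all 4 arrays across 17861 genes with limma. No gene was called for treatment at an adjusted p of 0.05 (0% in either direction), the smallest adjusted p being 0.368, and 2409 (13.5%) had an unadjusted p under 0.05. Of the 76 ribosomal protein genes none was called and 25 had an unadjusted p under 0.05. These 25 became 72 with an intensity trend in limma, where 17% of all genes had such a p. After quantile normalization they became 0, where 11.7% of all genes had one. For genotype no gene was called (0% in either direction), with 214 genes (1.2%) and none of the 76 under an unadjusted p of 0.05. With 1 residual degree of freedom a miss of the threshold does not show that values did not differ.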

How the data were processed

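The authors labeled 27.7 ng of pooled colon RNA per array and deposited a spot intensity that Agilent Feature Extraction (version 11.5.1.1) had corrected for background and for spatial trend, without scaling arrays to each other. The deposited table of the series is a ratio, the authors' intensity over the 75th percentile of its array, and served as an alternative. Here control spots and outlier spots were left out, replicate spots were averaged as log2 intensity and the 75th percentile of the array was subtracted. Probe positions are those of the array files (mm9), and names and promoters are from RefSeq tables of GRCm38.p6.

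Ratios were differences of log2 values between 2 arrays, with 2-fold as the threshold. The number of arrays limits the precision. A gene was compared where it was well above background on at least 1 of both arrays, and a dim side was treated as a bound. Treatment and genotype were fitted over 4 arrays by limma (version 3.58.1, R 4.3.3), p-values being adjusted after Benjamini-Hochberg. It was tested on simulated data of 17861 genes with 200 changed by 2 on the log2 scale at an assumed SD of 0.2, for the treatment effect, and recovered 100% of them with 8 unchanged genes called. The same SD was given to every simulated gene, so this recovery does not show the power of the fit in the colon data. Python 3.11.15 and pandas 2.3.3 served for all other steps.

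The members, the gene lists and the markers were chosen with earlier results of these data known. Genes to name were drawn from the members past 2-fold or among the 5 highest or 5 lowest in a comparison, 17 members by role, the genes past 2-fold among the 3 brightest of other lists, and Myc. Not all of these are named. Alternatives were no scaling, the array median, quantile normalization, normexp (offset 50) with quantile normalization, the mean over probes, the dimmest probe, 2 other filters on dim probes, the deposited table and a threshold of 1.5-fold, and for limma an intensity trend. The distance from the median of all genes was added after the values had been seen. Some items are not reported here.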

Additional observations from a re-analysis of the deposited data

How the results depend on the processing

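Of 120 recomputed values over 14 results, 98 stayed within 1.5 times the count or, for medians, within 0.093. That limit is the error of a log2 ratio from replicate spots. Some settings could hardly change the values. The deposited table has the same scaling, and the filters on dim probes removed none of the 76 genes. The count of 98 is therefore no measure of how firm the results are. For AOM over vehicle the median of the ribosomal protein genes in Pla2g3+/+ mice turned from -0.92 to 0.0946 without scaling, 0.0223 with quantile normalization and 0.0187 with normexp and quantile normalization, and in Pla2g3-/- mice it went from -0.91 to -0.0644, -0.164 and -0.164. The counts of 29 and 21 genes over 2-fold lower became 0 under each of these 3 settings, and 71 and 73 at 1.5-fold. Between genotypes after AOM the median went from 0.00 to -0.16 under each of the 3. With the dimmest probe of a gene 1 gene was over 2-fold higher and 4 lower after AOM, and 1 lower with vehicle. With the mean over probes 1 was lower after AOM, as was 1 at 1.5-fold. Relative to the median of all genes, the value for AOM over vehicle in Pla2g3+/+ mice was -0.75, and 0.0252 and 0.0245 with the quantile and the normexp and quantile settings. No paired analysis was possible because each group has 1 array. Signals of these genes were well above background on all arrays.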
